A study of Mus musculus with 12 samples.

Results

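Loss of both mitofusins in mouse oocytes did not equal the sum of the single losses at 470 of the 11385 genes measured (4.13%). Of these genes 320 were also called in Mfn2-/- against WT, beside 11.4% of all genes, and at 315 of the 320 the log2 change against WT was smaller when mitofusin 1 was lost as well. These counts share contrasts and libraries with the interaction that selected the genes, so they describe the set and test nothing. Trim15, Hmgb2, Rpl37 and Snrnp70, for example, fell in Mfn2-/- oocytes and stood near the WT level in Mfn1&2-/- oocytes. A smaller set of 18 genes changed at least 2-fold in the double loss and passed neither test nor fold limit in either single loss. Cdc5l and Pnpla3 rose among them from a few CPM or less to over 100 CPM, and Glt25d2 and Sec16b fell to a small part of their WT level. No gene met the rule for a change that the double loss made deeper, which required a called single-loss change of at least 2-fold.

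Germinal-vesicle oocytes, which are arrested in meiotic prophase, were taken from unprimed mice of 21 to 23 days whose strain is labelled C57BL/6J. The 4 groups were WT, Mfn1-/- (mitofusin 1 lost), Mfn2-/- (mitofusin 2 lost) and Mfn1&2-/- (both lost), with n = 3 pools each. Surrounding cumulus cells were stripped off, and every pool held 50 oocytes. The labels do not say how the alleles were made, whether pools came from separate animals, or whether the groups shared litters. Genotype and mouse stock therefore cannot be told apart, and p-values measure the spread between pools.

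Mitofusin 1 and mitofusin 2 are GTPases anchored in the outer mitochondrial membrane, where they bring mitochondria together for fusion. The pair can form complexes with themselves or with each other, so a cell that has lost one may still fuse mitochondria through the other. Mitofusin 2 also sits at contacts between mitochondria and the endoplasmic reticulum (ER). In the oocyte, mitochondria are inherited maternally and supply the ATP used for meiotic maturation.

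The quantity described here is the interaction, the log2 change of Mfn1&2-/- against WT minus the sum of the log2 changes of Mfn1-/- and Mfn2-/- against WT. It is 0 where the losses multiply independently, positive where Mfn1&2-/- stood above that level and negative where it stood below. It was tested for every gene with edgeR's quasi-likelihood test, and a gene is said to be called where the Benjamini-Hochberg adjusted p was below 0.05. Levels are in CPM, counts relative to the TMM-adjusted size of the library, and the 3 values of a group are its pools 1 to 3 in that order. Values after ± are approximate standard errors of log2 changes.

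Mfn1 and Mfn2 followed their labels in all 12 libraries. Mfn1 stood at 264 to 297 CPM in WT, 17.7 to 18.9 in Mfn1-/-, 217 to 245 in Mfn2-/- and 14.8 to 26.4 in Mfn1&2-/-. Mfn2 stood at 68.4 to 87.2, 64.3 to 70.8, 9.19 to 13.5 and 9.99 to 12.3 CPM in the same groups. Neither gene was called for the interaction, with edgeR log2 values of 0.42 ± 0.21 (adjusted p = 0.261) and 0.14 ± 0.23 (adjusted p = 0.764). Libraries held 11575357 to 16024893 counts. Oocyte markers summed to 9331 to 13400 CPM in the 12 libraries. The 11 measured granulosa markers summed to 893.3 CPM in WT pool 3 and to 441.6 to 542.2 CPM in the other libraries, and none of them was called. Some single markers differed by more. Inhbb stood at 155.4 CPM in WT pool 3 and at 0.226 to 17.0 in the other libraries. Inhba stood at 71.3 and at 0.0752 to 5.31, and Inha at 77.9 and at 2.24 to 19.8. Serpine2, the largest part of the sum, stood at 371 and at 276 to 367. Fshr, Kitl and Gata4 were not highest in WT pool 3. More granulosa cells and more RNA per granulosa cell cannot be told apart in pools. With WT pool 3 left out 199 genes were called, and with Mfn2-/- pool 2 left out 160. Leaving out both left 100 calls, 71 higher and 29 lower. The part of the granulosa signal in the interaction was not tested. These counts cannot separate it, because leaving out a pool also removes a replicate. Without Mfn1-/- pool 1, whose granulosa sum was 505.7 CPM, 168 genes were called. Mfn2-/- pool 2 had the lowest granulosa sum, at 441.6 CPM.

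Of the 470 called genes 333 were higher than the sum of the single losses (2.92% of all genes) and 137 were lower (1.2%). This balance depended on scaling. With library size only, 447 genes were called, 207 higher and 240 lower, so that 46.3% instead of 70.85% were higher. That scaling moved the median interaction of all genes by -0.107 on the log2 scale. All 470 genes kept their sign under it. The median size of the called interactions was 0.925 on the log2 scale and the smallest was 0.438. It exceeded 2-fold at 196 genes, 4-fold at 44 and 8-fold at 27. Without a correction for multiple tests, 2406 genes had p below 0.05. When additivity was taken on the CPM scale instead of the log2 scale, 302 of the 470 genes were still called.

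Each called gene was placed in 1 class by its changes against WT. A gene was restored where a single loss changed it at least 2-fold and Mfn1&2-/- kept at most 50% of that log2 change, which held for 83 genes. It was newly created where Mfn1&2-/- was called and at least 2-fold but neither single loss was called or 2-fold, which held for 18 genes. Less than additive described 2 genes whose fitted levels were at least 2-fold higher in both single losses. A gene counted as deepened only where a single loss was called and at least 2-fold. Mfn1&2-/- also had to be called in that direction, with a log2 change larger by at least 1. No gene was deepened by this rule, and none was reversed past 2-fold in the opposite direction. Sec16b fell further in the double loss without meeting the rule: its log2 changes were -0.68, -0.73 and -4.08 in Mfn1-/-, Mfn2-/- and Mfn1&2-/-. The other 367 genes met no class rule, and at 104 of them no contrast with WT was called. With a 1.5-fold limit in place of 2-fold, 184 genes were restored, 21 newly created, 1 deepened and 7 reversed. Leaving out 1 library gave 34 to 108 restored and 12 to 30 newly created genes. The highest count of newly created genes arose without Mfn1&2-/- pool 3 (30) and the next without Mfn1&2-/- pool 1 (28).

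**Figure D1:**
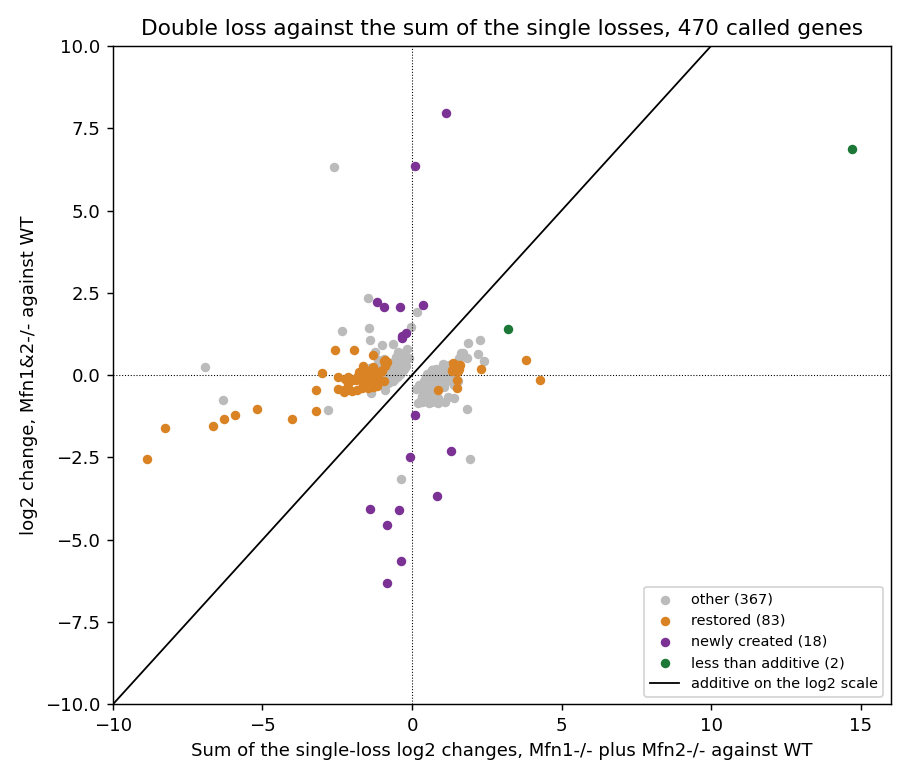
Each point is 1 of the 470 genes called for the interaction. The x axis is the sum of the fitted log2 changes of Mfn1-/- and Mfn2-/- against WT, the y axis the log2 change of Mfn1&2-/- against WT, and the line marks additivity. Most of the 83 restored genes lie near the horizontal line at 0, while a few, such as Nap1l5 (-2.55), Pknox2 (-1.59) and Rerg (-1.34), lie well below it, the 18 newly created genes lie above and below the centre, and the point far right is Map3k8, whose fitted values rest on WT pools without counts.

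The newly created genes were 9 that rose and 9 that fell in Mfn1&2-/- against WT, beside 2.1% of all genes called higher and 2.11% called lower in that comparison. In 17 of the 18 the Mfn1&2-/- pools lay wholly above or below the 9 other pools, which held for 4.8% of all genes. That separation follows in part from the class rule and is given as a description. The exception was Tex15. For 14 of the 18 genes the call was kept whichever library was left out.

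The regions just upstream of the 2 genes with the strongest rise, Cdc5l and Pnpla3, and of Cttnbp2 are shown because these genes moved together in the double loss alone by the class rule. Each is the 250 bases before the RefSeq start in GRCm38.p6, written along the gene's strand. The windows are chr17:45433708-45433957 (minus strand), chr15:84167566-84167815 (plus strand) and chr6:18514870-18515119 (minus strand). Capitals mark 3 motifs on either strand: the CCAAT box, the GC box with the letters GGGCGG, and the cAMP response element with the letters TGACGTCA.
Cdc5l: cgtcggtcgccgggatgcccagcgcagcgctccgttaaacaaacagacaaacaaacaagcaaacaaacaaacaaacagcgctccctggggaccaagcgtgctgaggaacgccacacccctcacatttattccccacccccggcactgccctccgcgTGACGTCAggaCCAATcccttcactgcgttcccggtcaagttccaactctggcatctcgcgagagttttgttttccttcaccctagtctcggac
Pnpla3: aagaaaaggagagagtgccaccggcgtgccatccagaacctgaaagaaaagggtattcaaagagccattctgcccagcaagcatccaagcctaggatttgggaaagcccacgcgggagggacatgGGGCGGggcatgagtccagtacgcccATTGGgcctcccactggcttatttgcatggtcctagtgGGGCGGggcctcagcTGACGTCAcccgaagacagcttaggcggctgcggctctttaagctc
Cttnbp2: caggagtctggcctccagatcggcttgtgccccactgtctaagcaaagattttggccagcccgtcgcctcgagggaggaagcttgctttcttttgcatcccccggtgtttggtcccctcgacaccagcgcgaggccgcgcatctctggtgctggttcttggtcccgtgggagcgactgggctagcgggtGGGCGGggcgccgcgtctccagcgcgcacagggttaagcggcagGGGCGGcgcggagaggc

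Promoter windows were matched by symbol for 9039 of the 11385 genes, giving 11566 windows, and for 8 of the 9 newly created genes that rose, giving 11. CCAAT stood in 9 of these 11 windows (81.8%), those of 7 of the 8 genes, and in 35.7% of all windows. Cttnbp2 was the matched gene without it. The share was not high across the class or the calls. CCAAT stood in 33.3% of the 9 windows of newly created genes that fell, 44.2% of restored windows and 38% of all called windows. TGACGTCA stood in 2 of the 11 windows, those of Cdc5l and Pnpla3, and in 2.74% of all windows. GGGCGG stood in 63.6% and 56.6%. TATAAA stood in none of the 11, in 22.2% of the windows of newly created genes that fell, and in 6.68% of all windows. CACGTG, an E box, stood in 18.2% and 8.35%, and AAGATGGC, the YY1 motif, in none of the 11 and in 2.07%. None of the 6 strings contains another. A match is a description of letters, and several windows belong to 1 gene.

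Cdc5l encodes a core protein of the complex that activates the spliceosome (GRCm38 chr17:45391884-45433737, minus strand). It stood at 1.92, 3.12 and 5.68 CPM in WT, 3.46, 1.505 and 3.17 in Mfn1-/-, 6.46, 3.24 and 5.49 in Mfn2-/-, and 336, 272 and 270.1 in Mfn1&2-/-. The 3 double-loss pools were all high and did not overlap any other pool. Their mean was 81.9 times that of WT, and the interaction was 6.25 ± 0.48 on the log2 scale (edgeR adjusted p = 8.66e-06). Pnpla3 encodes a lipase of lipid droplets (chr15:84167837-84187236, plus strand). It stood at 0.559, 0.422 and 1.59 CPM in WT, 1.504, 1.07 and 0.4997 in Mfn1-/-, 2.13, 0.415 and 2.01 in Mfn2-/-, and 190.3, 300.4 and 148 in Mfn1&2-/-. Again only the double-loss pools were high. The interaction was 6.80 ± 0.86 (edgeR adjusted p = 0.000845).

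Triobp, which encodes a binding partner of TRIO and filamentous actin (chr15:78947724-79005869, plus strand), was already well detected in WT. Its levels were 42.5, 46.1 and 42.8 CPM in WT, 34.7, 41.4 and 33.9 in Mfn1-/-, 44.1, 37.6 and 37.0 in Mfn2-/-, and 151, 259 and 138 in Mfn1&2-/-. The 9 pools that kept a mitofusin lay close together. The Mfn1&2-/- mean was 4.17 times that of WT, with an interaction of 2.46 ± 0.27 (edgeR adjusted p = 0.00026). Alad, an enzyme of heme synthesis (chr4:62509169-62519918), stood at 11.3, 4.13 and 4.01 CPM in WT and at 15.2, 34.8 and 31.3 in Mfn1&2-/-, and both single losses stayed between 3.00 and 5.98. WT pool 1 was the highest of the 9 others, still below every double-loss pool. The interaction was 3.00 ± 0.58 (edgeR adjusted p = 0.0129). Cttnbp2, which encodes a partner of cortactin (chr6:18366478-18514843), rose 4.63-fold to 47.7, 13.2 and 45.6 CPM from 7.51, 5.65 and 9.85 in WT (edgeR interaction 3.38 ± 0.60, adjusted p = 0.00831). Pool 2 was the lowest of its double-loss pools and still lay above the 9 others.

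The other 4 genes that rose were Emx2, Bckdhb, Lrp12 and Xlr3c. Emx2, a homeobox transcription factor gene, stood at 71.1, 96.8 and 81.6 CPM in Mfn1&2-/- and at 18.9 to 46.0 elsewhere. Bckdhb, a subunit of the mitochondrial enzyme that breaks down branched-chain keto acids, stood at 22.4, 31.6 and 22.6 CPM and at 6.76 to 14.5 elsewhere. Lrp12, a member of the LDL receptor family, stood at 14.6, 22.4 and 24.98 CPM and at 4.86 to 11.7 elsewhere. These 3 genes are outside the rule for naming and were chosen after their values were seen. Xlr3c, chosen likewise, stood at 54.7, 31.0 and 56.6 CPM and at 6.93 to 21.2 elsewhere, but it belongs to a family of near-identical copies whose reads could be split by the counting.

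Glt25d2 encodes a galactosyltransferase that modifies collagen (chr1:152399830-152510695, plus strand). It stood at 16.2, 20.1 and 14.4 CPM in WT, 19.1, 14.9 and 20.2 in Mfn1-/-, 12.9, 12.7 and 11.2 in Mfn2-/-, and 0.842, 0.131 and 0.0757 in Mfn1&2-/-. The double-loss pools kept 2.07% of the WT mean. The interaction was -5.28 ± 0.58 (edgeR adjusted p = 0.00026). Homer2, a scaffold protein gene (chr7:81600481-81707527), stood at 17.7, 77.3 and 46.7 CPM in WT, 49.6 to 80.3 in Mfn1-/-, 67.5 to 95.4 in Mfn2-/-, and 10.3, 8.02 and 10.1 in Mfn1&2-/-. Its WT pools spread widely, with pool 1 the lowest, and the double-loss pools lay below all of them. The interaction was -3.63 ± 0.51 (edgeR adjusted p = 0.00178).

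Sec16b, which encodes a protein of ER exit sites (chr1:157506728-157568425), stood at 26.9, 36.5 and 22.9 CPM in WT, 12.3 to 21.3 in Mfn1-/-, 14.9 to 19.3 in Mfn2-/- and 1.35, 0.526 and 3.26 in Mfn1&2-/-. All 3 mutant groups lay below WT, and the double loss lay lowest. The log2 interaction was -2.68 ± 0.56 (edgeR adjusted p = 0.0185), and on the CPM scale the call was lost (adjusted p = 0.518). Hgsnat, a lysosomal acetyltransferase gene of heparan sulfate breakdown (chr8:25944453-25976753), stood at 8.71, 8.01 and 11.2 CPM in WT, 10.3 to 17.8 in Mfn1-/-, 3.32 to 8.57 in Mfn2-/- and 1.94, 1.64 and 1.36 in Mfn1&2-/-. Its interaction was -2.43 ± 0.49 (edgeR adjusted p = 0.0167), with an adjusted p of 0.0608 on the CPM scale.

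Tex15, a gene needed for meiotic recombination in male germ cells (chr8:33516738-33585582), stood at 244, 119 and 241 CPM in WT and at 9.18, 7.43 and 9.16 in Mfn1&2-/-. Mfn2-/- pool 2 held 8.47 CPM against 142 and 232 in the other Mfn2-/- pools, so the groups overlapped. The interaction of -3.73 ± 0.94 (edgeR adjusted p = 0.0402) was lost when any of 11 of the 12 libraries was left out, with a largest adjusted p of 0.0997. Arhgef18, chosen after its values were seen, fell to 36.0, 34.7 and 35.7 CPM from 113, 71.4 and 63.2 in WT.

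**Figure D2:**
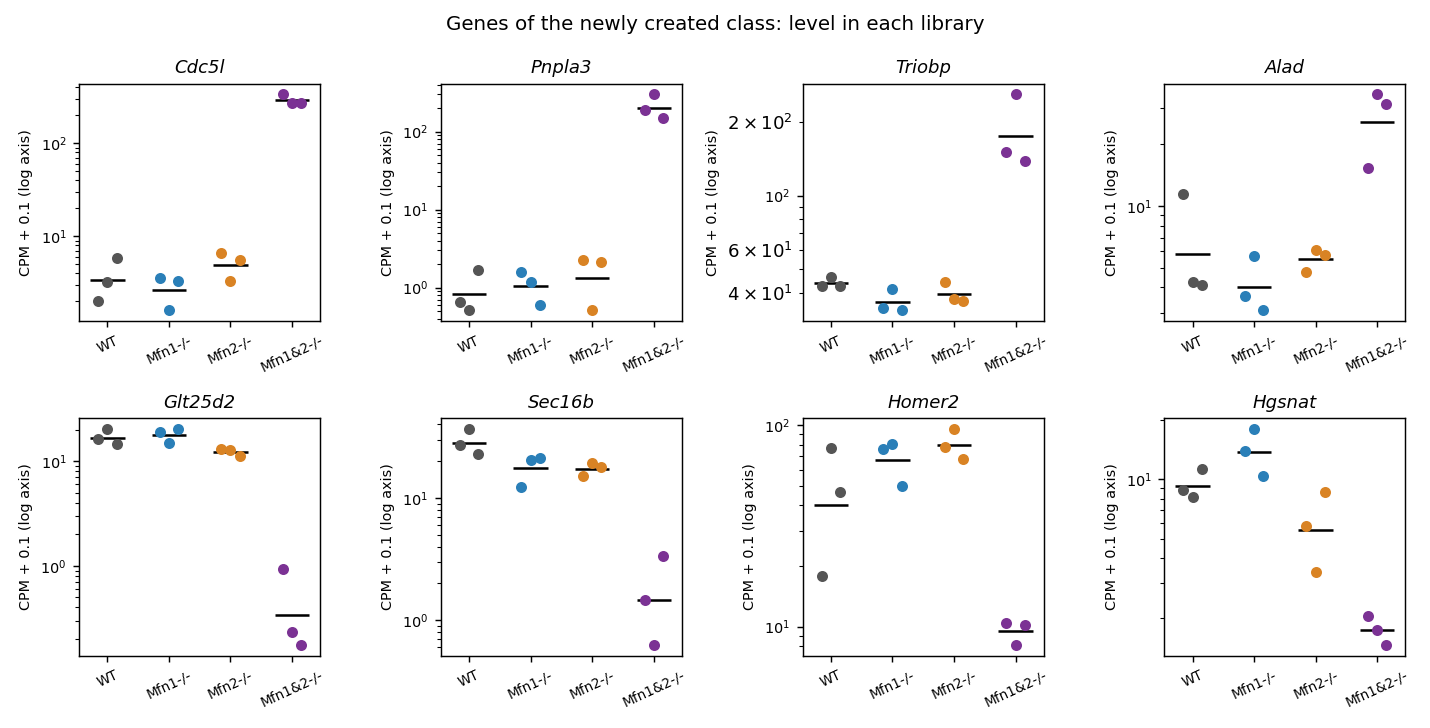
Levels of 8 newly created genes in each of the 12 libraries, with CPM + 0.1 on a log axis and a bar at the geometric mean of the 3 pools of a group. The Mfn1&2-/- pools stand apart from the other 9 in every panel, above them in the upper row and below them in the lower row.

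Several genes in no class also stood apart in the double loss. Stk32a, Ugcg and Ublcp1 missed the rule because a single loss had a fitted change past 2-fold or a call. Stk32a, a kinase gene (chr18:43207583-43318682), stood at 0.639, 0.928 and 1.75 CPM in WT, 0.526, 0 and 0 in Mfn1-/-, 2.26, 0.166 and 0.803 in Mfn2-/-, and 91.0, 85.6 and 90.5 in Mfn1&2-/-. The double-loss pools were all high, and its interaction of 8.93 ± 1.02 (edgeR adjusted p = 0.000319) is enlarged by the low Mfn1-/- pools. Ugcg encodes glucosylceramide synthase (chr4:59189257-59222833), the enzyme that commits ceramide to glycosphingolipids. It stood at 145, 56.9 and 62.0 CPM in WT, 53.1 to 70.5 in Mfn1-/-, 36.5 to 55.8 in Mfn2-/-, and 242, 229 and 238 in Mfn1&2-/-. Mfn2-/- was lower than WT by 0.91 on the log2 scale (adjusted p = 0.0397) and Mfn1&2-/- was higher by 1.43 (adjusted p = 0.00619). The interaction was 2.85 ± 0.38 (edgeR adjusted p = 0.00107).

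Ublcp1, a phosphatase gene (chr11:44454571-44470498), stood at 58.8, 27.2 and 6.26 CPM in WT, 46.7 to 64.4 in Mfn1-/-, 48.6 to 86.6 in Mfn2-/- and 4.13, 4.21 and 7.57 in Mfn1&2-/-. WT pool 3 overlapped the double loss. The interaction was -4.48 ± 0.72 (edgeR adjusted p = 0.00436). Ak5 and Enpp4 missed the newly created rule because Mfn1&2-/- was not called against WT (edgeR adjusted p = 0.076 and 0.115). Enpp4 was also called higher in Mfn2-/- (edgeR log2 0.78, adjusted p = 0.044), and its double-loss change of -0.71 was under 2-fold. Ak5, an adenylate kinase gene, stood at 43.6, 38.4 and 32.0 CPM in Mfn1&2-/- and at 5.49 to 21.3 elsewhere (edgeR interaction 2.47 ± 0.47, adjusted p = 0.0122). Enpp4, an ectonucleotidase gene, stood at 5.89, 5.00 and 6.43 CPM in Mfn1&2-/- and at 7.02 to 17.3 elsewhere (edgeR interaction -2.12 ± 0.34, adjusted p = 0.00395). Calls for Tnc, which encodes the matrix protein tenascin-C, and Psmb5, a proteasome subunit, were each lost by leaving out any of 8 libraries, and that for Rnaset2b by leaving out Mfn1-/- pool 1.

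The restored class held 69 genes higher and 14 lower than the sum. Loss of mitofusin 2 accounted for most of its single changes: 63 genes had fallen and 13 had risen at least 2-fold in Mfn2-/- against 6 and 1 in Mfn1-/-. Across all genes 11.4% were called in Mfn2-/- (6.87% lower, 4.52% higher) and 0.228% in Mfn1-/- (0.158% lower, 0.0703% higher), so most calls available to be restored were those of Mfn2-/-. Compared directly with Mfn2-/-, the double loss was called higher at 59 and lower at 13 of the 83 genes, beside 10.2% of all genes called in that comparison (6.14% higher, 4.08% lower). Compared with WT it was called lower at 1 and higher at none, beside 4.21% of all genes. These counts share the libraries that set the class and are descriptions.

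Trim15, which encodes a ubiquitin ligase of focal adhesions (chr17:36860691-36867210, minus strand), stood at 41.7, 46.6 and 29.6 CPM in WT, 59.4, 39.1 and 34.0 in Mfn1-/-, 5.73, 6.81 and 6.16 in Mfn2-/-, and 37.6, 31.8 and 44.2 in Mfn1&2-/-. The Mfn2-/- pools were low and the other 9 overlapped one another. Mfn2-/- kept 15.9% of the WT mean and Mfn1&2-/- 96.4%. The interaction was 2.43 ± 0.32 (edgeR adjusted p = 0.00107), with an adjusted p of 0.0602 on the CPM scale. Fam174b stood at 19.7, 10.7 and 29.4 CPM in WT, 3.80, 9.80 and 3.75 in Mfn2-/- and 34.2, 35.6 and 31.5 in Mfn1&2-/-, with an interaction of 2.69 ± 0.54 (edgeR adjusted p = 0.0156). Rerg, a Ras-like gene, stood at 12.6, 12.2 and 7.43 CPM in WT, 1.53, 1.33 and 2.01 in Mfn2-/- and 3.79, 5.13 and 3.79 in Mfn1&2-/-. It was thus restored in part, to 39.4% of the WT mean from 15.1% (edgeR interaction 2.68 ± 0.54, adjusted p = 0.0161).

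Hmgb1, Hmgb2 and Hmgb3, which encode high-mobility-group box proteins that bend DNA in chromatin, were the 3 Hmgb genes tested, and all 3 were restored beside 0.729% of all genes. They and Umodl1 were chosen after their values were seen, and Hmgb1 and Hmgb2 have many processed copies in the genome that could share reads. Hmgb2 stood at 476, 740 and 876 CPM in WT, 441, 588 and 571 in Mfn1-/-, 194, 164 and 217 in Mfn2-/-, and 671, 645 and 596 in Mfn1&2-/- (edgeR interaction 2.12 ± 0.25, adjusted p = 0.000362). Hmgb3 stood at 16.2, 26.6 and 24.8 CPM in Mfn2-/- and at 43.6 to 74.6 in the 9 other pools. Hmgb1 stood at 87.5, 80.4 and 89.4 CPM in Mfn2-/-, 244, 157 and 169 in Mfn1&2-/- and 234 to 309 in WT. Umodl1, an abundant transcript of these oocytes that encodes a uromodulin-like protein, stood at 837, 960 and 1039 CPM in WT, 404, 361 and 421 in Mfn2-/-, and 1062, 949 and 953 in Mfn1&2-/- (edgeR interaction 1.68 ± 0.16, adjusted p = 4.9e-05). In all 4 genes the Mfn2-/- pools lay below every other pool, and each call was kept whichever library was left out. The Mfn2-/- pools lay wholly above or below the 9 others at 79.5% of restored genes and 11.1% of all genes. That separation follows in part from the class rule.

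**Figure D3:**
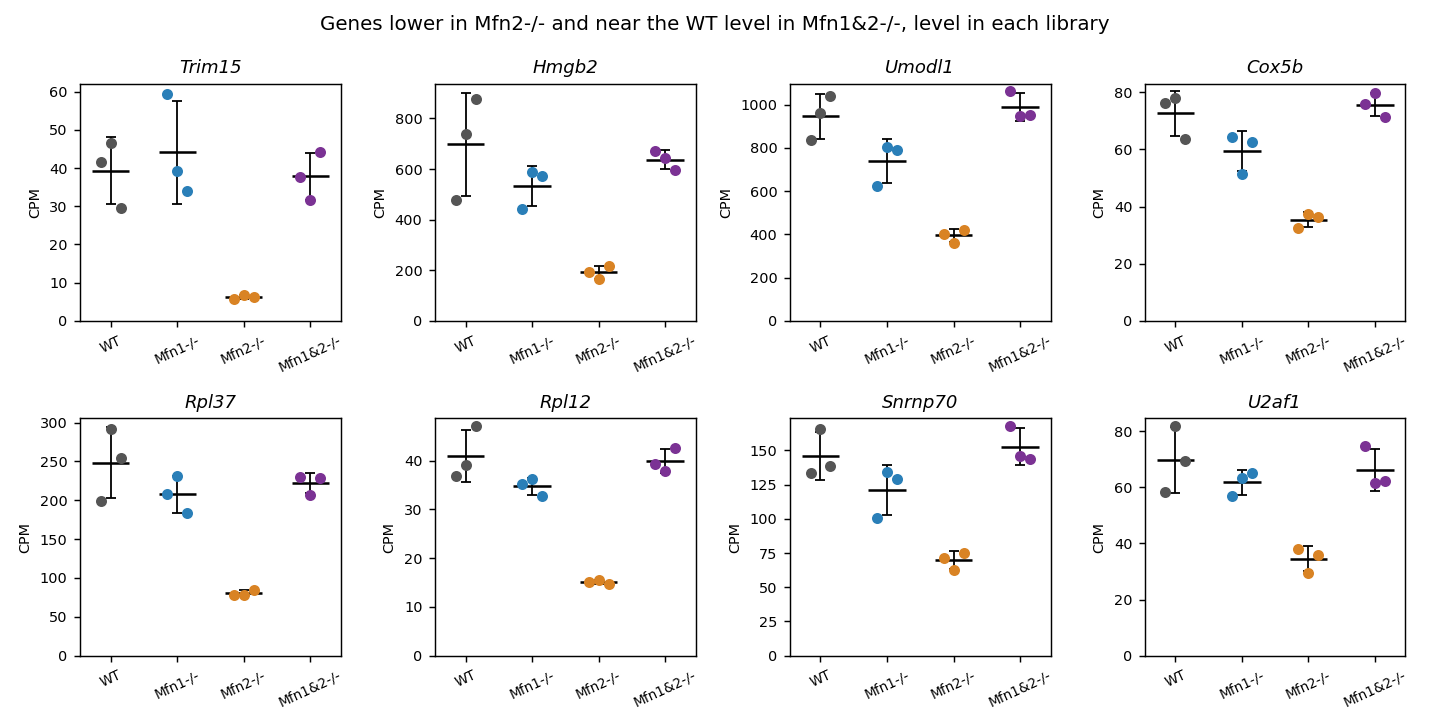
Levels in CPM of 8 restored genes in each of the 12 libraries, with the mean and SD of each group of 3 pools. The 3 Mfn2-/- pools lie below the other 9 in every panel, and the Mfn1&2-/- pools lie among or close to the WT pools. Separation of the Mfn2-/- pools, in either direction, held for 79.5% of restored genes and 11.1% of all genes.

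Cytosolic ribosomal proteins, the protein part of the ribosome, were called at 11 of 73 tested (15.1%), all 11 higher than the sum, beside 2.92% of all genes called higher. By share this was the third of the 26 gene lists, after adhesion (25.9%) and ceramide and sphingolipid genes (15.4%), and the list's median interaction was 0.427 beside -0.0107 for all genes. The interaction was above 0 at 55 of the 73 (75.3%) beside 49.1% of all genes. The called genes were Rpl37, Rpl12, Rpl28, Rps23, Rpl14, Rpl13a, Rpl5, Rplp0, Rpl11, Rpl23a and Rpl13. Rpl37 (chr15:5116645-5119140) stood at 200, 291 and 254 CPM in WT, 208, 231 and 184 in Mfn1-/-, 78.2, 78.4 and 84.8 in Mfn2-/-, and 231, 207 and 229 in Mfn1&2-/-. Mfn2-/- alone was low, and the interaction was 1.72 ± 0.18 (edgeR adjusted p = 0.000133). Rpl12 stood at 36.7, 39.1 and 47.0 CPM in WT, 15.2, 15.4 and 14.6 in Mfn2-/-, and 39.3, 37.9 and 42.5 in Mfn1&2-/- (edgeR interaction 1.64 ± 0.20, adjusted p = 0.000751). Rpl28 stood at 66.0, 89.9 and 86.4, at 24.3, 26.8 and 27.2, and at 78.1, 71.3 and 68.9 CPM in the same groups (edgeR interaction 1.85 ± 0.27, adjusted p = 0.0022). Ribosomal protein genes have many processed copies, and the sources used here do not give how the counting treated reads matching several places. Rpl12 and Rpl28 also overlap a gene on the opposite strand.

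The restored genes that had fallen in Mfn2-/- had short exon lengths, counted as the bases covered by all annotated exons of a gene. Their median exon length was 3012 bases beside 4666 for all genes tested, and 19.7% were under 1500 bases beside 5.77%. The 179 genes that had fallen at least 2-fold in Mfn2-/- without being restored had a median of 4554 bases, with 9.04% under 1500. Ribosomal protein genes, some of which are in the restored set, had a median of 1781 bases. The part of transcript length in the interaction was not tested.

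**Figure D4:**
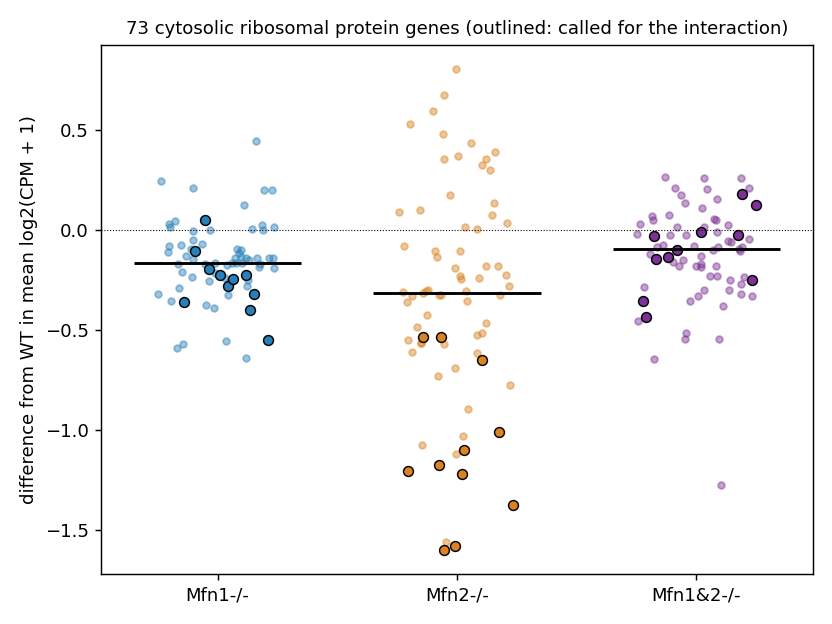
Difference from WT in mean log2(CPM + 1) for 73 cytosolic ribosomal protein genes in Mfn1-/-, Mfn2-/- and Mfn1&2-/-, with a bar at the median of each group. Each point is 1 gene and the outlined points are the 11 genes called for the interaction, which lie low in Mfn2-/- and mostly near 0 in the double loss.

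Spliceosome genes were called higher than the sum at 5 of 51 tested (9.8%, beside 2.92% of all genes; median interaction 0.184), and none was called lower. Besides Cdc5l these were Snrnp70, U2af1, Srsf10 and Snrpd1. Snrnp70, the 70K protein of the U1 particle that reads the start of introns, stood at 134, 166 and 138 CPM in WT, 100.4, 134 and 129 in Mfn1-/-, 71.6, 62.5 and 75.3 in Mfn2-/-, and 168, 146 and 144 in Mfn1&2-/- (edgeR interaction 1.4 ± 0.18, adjusted p = 0.00105). U2af1, part of the factor that recognises the end of introns, stood at 58.3, 81.9 and 69.2 CPM in WT, 38.0, 29.5 and 36.0 in Mfn2-/-, and 74.6, 61.5 and 62.1 in Mfn1&2-/- (edgeR interaction 1.11 ± 0.21, adjusted p = 0.0122). For both genes the Mfn2-/- pools were the low ones. Cdc5l differed from them, being low in WT and both single losses.

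OXPHOS subunits, the proteins of the respiratory chain and ATP synthase, were called at 5 of 75 (3 higher, 2 lower; median interaction 0.00498), a share of 6.67% that is near the 4.13% of all genes. Cox5b, a subunit of cytochrome c oxidase, was restored: 76.4, 78.1 and 63.6 CPM in WT, 64.4, 51.5 and 62.5 in Mfn1-/-, 32.4, 37.5 and 36.3 in Mfn2-/-, and 75.9, 79.8 and 71.5 in Mfn1&2-/- (edgeR interaction 1.39 ± 0.18, adjusted p = 0.00107). Atp5b, a catalytic subunit of ATP synthase, stood at 290 to 333 CPM in WT, 191 to 229 in Mfn2-/- and 308 to 324 in Mfn1&2-/- (edgeR interaction 0.68 ± 0.14, adjusted p = 0.0178), and its call was lost without Mfn2-/- pool 2 (adjusted p = 0.0524). Uqcrb was the third gene that was higher. The lower ones were Ndufv1 and Ndufb5. Ndufb5 lies within 10 Mb of Mfn1 and its call was lost without any of 11 libraries.

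Among 25 genes of mitochondrial fusion and fission (8% called, beside 4.13% of all genes), Dnm2 was called higher and Slc25a46 lower. Dnm2, dynamin 2, stood at 106 to 124 CPM in WT, 106 to 116 in Mfn1-/-, 78.8 to 82.4 in Mfn2-/- and 120.4 to 123 in Mfn1&2-/- (edgeR interaction 0.66 ± 0.13, adjusted p = 0.0165). Slc25a46, an outer-membrane protein linked to mitochondrial shape, lost its call without any of 10 libraries. Of 24 genes of ER contact and calcium uptake only Rmdn3 was called (4.17%, near the share of all genes). It encodes an outer-membrane tether to the ER and stood at 46.2, 54.7 and 48.4 CPM in WT, 56.1, 59.9 and 51.1 in Mfn1-/-, 63.2, 51.9 and 60.8 in Mfn2-/-, and 33.3, 31.7 and 29.5 in Mfn1&2-/-. The double-loss pools were the lowest of the 12. The interaction was -1.06 ± 0.19 (edgeR adjusted p = 0.00801). Rmdn3 overlaps another gene on the opposite strand. Rhot1, the transport adaptor Miro1, was the only call among 8 transport genes (12.5%), with an edgeR interaction of 0.44 ± 0.12 (adjusted p = 0.0467). That call was lost without any of 11 libraries.

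Genes of the ER unfolded protein response were called higher at 3 of 24 (12.5%, beside 2.92% of all genes): Canx, Pdia4 and Calr, which encode folding helpers of the ER. Canx, calnexin, stood at 634, 593 and 744 CPM in WT, 488, 588 and 536 in Mfn1-/-, 446, 428 and 440.0 in Mfn2-/-, and 627, 593 and 615 in Mfn1&2-/- (edgeR interaction 0.77 ± 0.13, adjusted p = 0.00696). Both single losses lay below the double loss. The Pdia4 call was lost without any of 5 libraries and the Calr call without any of 9, WT pool 3 among them in each case. In the integrated stress response list 1 of 26 genes was called (3.85%, beside 4.13% of all genes). This gene, Ppp1r15a, had an edgeR adjusted p of 0.05 after rounding, and its call was lost without any of 10 libraries. No mitochondrial protease or chaperone gene (20 tested) and no PI3K or mTOR gene (30 tested) was called by edgeR, with 2 and 5 at an unadjusted p below 0.05.

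Genes of adhesion and oocyte-granulosa contact were called at 7 of 27 (25.9%, beside 4.13% of all genes), 4 higher and 3 lower. Cd9, a tetraspanin of the egg surface needed for fusion with sperm, stood at 36.8, 34.5 and 38.4 CPM in WT, 63.9, 51.0 and 39.9 in Mfn1-/-, 38.8, 53.7 and 51.2 in Mfn2-/-, and 21.4, 21.4 and 18.5 in Mfn1&2-/-. The double-loss pools were the lowest of the 12, and the interaction was -1.73 ± 0.25 (edgeR adjusted p = 0.00244). Itga9, an integrin subunit gene, stood highest in the double loss, at 273, 303 and 262 CPM, beside 207 to 240.2 in WT and 165 to 176 in Mfn2-/- (edgeR interaction 0.78 ± 0.14, adjusted p = 0.00892). Ocln, which encodes the tight-junction protein occludin, had risen in Mfn1-/- to 39.3, 37.6 and 33.3 CPM from 19.7, 17.5 and 17.2 in WT, and stood at 25.3, 23.5 and 20.6 in Mfn1&2-/- (edgeR interaction -1.01 ± 0.24, adjusted p = 0.0325). Cdh1, Cdh2 and Fscn1 were higher than the sum and Itgb1 lower. The Cdh1 call was lost without Mfn1-/- pool 1 or Mfn2-/- pool 2. Calls for Ocln, Cdh2, Fscn1 and Itgb1 were each lost without at least 1 library. Of the 7 calls, those for Cd9 and Itga9 alone were kept whichever library was left out.

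Oocyte genes were called lower at 3 of 28 (10.7%, beside 1.2% of all genes), namely Cd9, Tex15 and Oog4, and higher at none. Oog4 lies within 10 Mb of Mfn2. Its call was lost without any of 10 libraries and that for Tex15 without any of 11. Of the 3, Cd9 alone was called whichever library was left out. Of 33 maternal effect genes only Zar1l was called (3.03%, beside 4.13% of all genes). It stood at 130 to 145 CPM in Mfn2-/- and 200 to 375 in Mfn1&2-/-, and its call was lost without any of 8 libraries. Meiotic maturation genes were called at 3 of 46 (6.52%, beside 4.13% of all genes), with Bub1b and Tpx2 higher and Prkacb lower. Prkacb, a catalytic subunit of protein kinase A, stood at 22.9 to 25.4 CPM in WT, 41.7 to 44.95 in Mfn1-/-, 23.5 to 36.2 in Mfn2-/- and 23.2 to 30.6 in Mfn1&2-/- (edgeR interaction -0.96 ± 0.24, adjusted p = 0.0404). The Prkacb call was lost without any of 9 libraries and the Tpx2 call without any of 6. Bub1b, a kinase of the spindle checkpoint, stood at 1244 to 1546 CPM in Mfn2-/- and 1984 to 2131 in Mfn1&2-/- (edgeR interaction 0.69 ± 0.14, adjusted p = 0.0149). Eif4e, the cap-binding protein of translation, was the only call among 41 genes of mRNA storage and decay (2.44%, beside 4.13% of all genes). It stood at 192 to 208 CPM in Mfn2-/-, 308 to 380 in Mfn1&2-/- and 271 to 347 in WT (edgeR interaction 0.81 ± 0.16, adjusted p = 0.0161). Ceramide and sphingolipid genes were called at 4 of 26 (15.4%, beside 4.13% of all genes), with Ugcg higher and Degs1, Kdsr and Sgms1 lower. Degs1 and Kdsr, enzymes of ceramide synthesis, lost their calls without any of 10 and 11 libraries.

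In the cholesterol list 6.9% of the 29 tested genes were called, beside 4.13% of all genes. Idi1, an isomerase of the synthesis pathway, was restored from 7.81 to 9.66 CPM in Mfn2-/- to 18.8 to 32.2 in Mfn1&2-/-. Its call was lost without any of 8 libraries. In the lists of autophagy, antioxidant, apoptosis, glycolysis and mtDNA genes 1 or 2 members each were called, a share of 3.57% to 5.26%. Their calls, for Bnip3l, Lamp2, G6pdx, Aifm1, Ldhb and Mterfd2, were each lost without at least 3 of the 12 libraries.

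Restoration of a change seen in Mfn1-/- was less common. Tekt4, which encodes a tektin of cilia and flagella, stood at 4.23, 6.58 and 4.18 CPM in WT, 0.827, 0.0627 and 0.833 in Mfn1-/-, 7.32, 7.47 and 7.43 in Mfn2-/-, and 11.95, 4.73 and 8.86 in Mfn1&2-/- (edgeR interaction 3.35 ± 0.74, adjusted p = 0.0228). Abca9, an ABC transporter gene, stood at 8.31, 12.3 and 10.4 CPM in WT, 1.35, 1.32 and 2.08 in Mfn1-/-, and 13.7, 6.84 and 11.8 in Mfn1&2-/- (edgeR interaction 3.07 ± 0.65, adjusted p = 0.0193). In both genes the Mfn1-/- pools were the lowest. The Mfn1-/- pools lay wholly above or below the 9 others at 8.43% of restored genes and 3.76% of all genes. The Tekt4 call was lost without WT pool 2, Mfn2-/- pool 2 or Mfn2-/- pool 3, and the Abca9 call without Mfn1-/- pool 1 or Mfn2-/- pool 3.

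The largest restored values rested on few pools. Pknox2, a homeobox gene, stood at 40.6, 53.6 and 39.1 CPM in WT and at 0, 0.498 and 0.134 in Mfn2-/-, while its Mfn1&2-/- pools ranged over 0, 13.9 and 30.1 (edgeR interaction 6.67 ± 1.44, adjusted p = 0.0209). One double-loss pool was thus as low as Mfn2-/-. The Pknox2 call was lost without Mfn1-/- pool 1 or Mfn2-/- pool 3, and also on the CPM scale. Nap1l5, an imprinted gene inside Herc3 on the opposite strand, stood at 38.8 CPM in WT pool 3 and at 2.00 and 5.65 in the other WT pools. Its means were 1.52 CPM in Mfn1-/-, 0.312 in Mfn2-/- and 2.64 in Mfn1&2-/-. Though classed as restored, it thus stayed at 17.05% of the WT mean in the double loss, whose pools overlapped those of Mfn1-/-. The Nap1l5 call was lost without WT pool 3, Mfn1-/- pool 1 or Mfn2-/- pool 2. Cc2d2a, a gene of the ciliary transition zone, was lost without any of 6 libraries. D5Ertd577e and Nlrp5-ps, which had risen in Mfn2-/-, belong to families of near copies, and their calls were lost without any of 8 and 10 libraries.

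Less than additive described Map3k8 and Tmem189. Map3k8, a kinase gene chosen here after its values were seen, had no count in WT, 93 in Mfn1-/-, 45 in Mfn2-/- and 42 in Mfn1&2-/-. With 3 counts in place of WT, pooled over the group, it was at least 27.3-fold, 13.0-fold and 12.6-fold higher in these groups. Tmem189 stood at 3.51 to 6.24 CPM in WT, 9.93 to 15.5 in Mfn1-/-, 15.1 to 17.5 in Mfn2-/- and 7.495 to 19.0 in Mfn1&2-/-, and its call was lost without any of 10 libraries.

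Called genes were more abundant than genes at large, with a median mean level of 84.1 CPM beside 24.9. Overlap with another annotated gene was found for 70 of the 470, for 67 on the opposite strand, and in no such pair were both genes called. Genes within 10 Mb of the targeted loci were not called more often than 4.13%: 2 of 56 near Mfn1 (3.57%) and 4 of 159 near Mfn2 (2.52%). The calls closest to the threshold were G3bp1, Gsdmc4 and Ppp1r15a, at adjusted p of 0.0496, 0.0497 and 0.05, and the nearest genes outside it were Actr3, Nolc1 and Csrnp1, at 0.0501, 0.0505 and 0.0507. Among the 470 calls, 126 were kept whichever library was left out (94 higher and 32 lower), of which 35 were restored and 14 newly created. The number of calls moved by over 1.5 times without WT pool 2 (250), WT pool 3 (199), Mfn1-/- pool 1 (168), Mfn2-/- pool 2 (160), Mfn2-/- pool 3 (211) or Mfn1&2-/- pool 2 (228).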

How the data were processed

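Total RNA of 12 pools was sequenced as stranded, ribosome-depleted libraries, per the labels' protocols. Per the submitters' processing notes, STAR 2.7.0a, FastQC 0.11.7 and edgeR were used with the mm10 genome. The authors deposited raw counts per gene, which were used here, and a CPM table, which was not. The sources used here do not give the strand setting, the annotation or what was done with reads matching several places. Libraries held 11575357 to 16024893 counts, and no pair of pools within a group agreed within sampling noise. Counting intervals and floors cover counting error only.

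With TMM scaling, edgeR 4.0.16 (R 4.3.3) was run on the counts (quasi-likelihood, 1 mean per group, 12 libraries, 8 residual degrees of freedom), and the interaction was tested over 11385 genes with Benjamini-Hochberg adjustment. The same fit gave the contrasts with WT and with the single losses. Standard errors are the absolute log2 value divided by the square root of F. One pool, whose genotype is spelled "Mn2-/-", was placed in Mfn2-/- by its description. Positions are GENCODE vM21 spans on GRCm38, found for 10700 genes by symbol and 574 by an older name. Promoters are RefSeq sequences of GRCm38.p6.

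Named genes are Mfn1, Mfn2, up to 10 per class with the largest interaction (computed from pooled counts, groups under 3 counts set to 3) at a mean of at least 5 CPM in any group, predicted genes left out, and up to 3 called genes per list. The members and the 26 lists (863 genes, 737 tested) were chosen with earlier results of these data known. Alternatives were RLE scaling, library size only, no filter, the replicate number as a block, a filter of 5 CPM in 3 or more libraries, glmTreat at 1.5-fold, DESeq2 1.42.0, limma 3.58.1 (voom, with and without quality weights, and CPM values), a 1.5-fold class limit, genes within 10 Mb of Mfn1 or Mfn2 left out, each library left out, and, added after seeing the data, WT pool 3 and Mfn2-/- pool 2 left out together. The edgeR procedure was tested on simulated data. Some called genes are not reported here.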

Additional observations from a re-analysis of the deposited data

Results flagged for a closer look

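The change on loss of mitofusin 1 differed between oocytes with and without mitofusin 2 at 470 genes, by the edgeR interaction test itself. It was higher in the absence of mitofusin 2 at 333 of them and lower at 137.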

How the results depend on the processing

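The count of 470 called genes (333 higher, 137 lower) became 276 (197 and 79) with the replicate number as a block, 27 (22 and 5) against a 1.5-fold limit with glmTreat, and 903 (589 and 314) with DESeq2. Library size only gave 207 higher and 240 lower, the CPM scale 207 higher, and voom with quality weights 239 lower. Without both WT pool 3 and Mfn2-/- pool 2, chosen after seeing the data, 100 were called (71 and 29), with 25 restored, 1 deepened and 14 newly created. Leaving out each replicate in turn gave 160 to 464 calls, 115 to 322 higher, 45 to 142 lower, 34 to 108 restored, 0 to 1 deepened and 12 to 30 newly created. A 1.5-fold class limit gave 184 restored and 1 deepened. In every fit that tested them, the 470 genes kept their sign. Of 67 called genes that the naming rule gave, 32 were called whichever library was left out. Same-numbered pools of different groups correlated at -0.134 to 0.179, over 0.1 in 4 of 18 pairs. The other pairs between groups correlated at -0.26 to 0.183, and 7 of 12 libraries correlated best with their own number. These values cannot decide whether the pools were paired. The deposited count columns carry other numbers, and pairing by those was not tested. No interaction of a named gene turned its direction, but the majority of calls turned from higher to lower with library size only. The causes of these changes were not tested. Whether greater depth or more pools would alter these counts was not tested.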

Other observations

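The newly created genes lay on 12 chromosomes, and 7 of the 18 had another one within 10 Mb that changed in the same direction. These were Glt25d2 and Sec16b on chromosome 1, Triobp and Pnpla3 on chromosome 15, and Hgsnat, 7420700N18Rik and Tex15 on chromosome 8. This pattern was chosen after the values were seen and has no test. On chromosome 8 the Mfn2-/- pools were unequal: pool 2 held 8.47 CPM of Tex15 and 0.664 of 7420700N18Rik, beside 142 and 232 and beside 8.92 and 17.0 in pools 1 and 3. In Mfn1&2-/- 7420700N18Rik stood at 0.253, 0.329 and 0 CPM and in WT at 18.9, 13.7 and 17.0. Mfn2-/- pool 2 was also the lowest Mfn2-/- pool for Hgsnat, at 3.32 CPM.

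A stretch of chromosome 4 from Ptgr1 to Tnc (58965439 to 64047015) held 25 tested genes, of which 5 were called, all 5 higher in the double loss than the sum: Ptgr1, Ugcg, Alad, Rgs3 and Tnc. The stretch was drawn around these calls after their values were seen, so its share tests nothing; 4.08% of the genes tested on chromosome 4 and 4.13% of all genes were called. WT pool 1 was the highest WT pool for each of them. It held 24.2 CPM of Ptgr1 beside 17.6 and 17.5, 145 of Ugcg beside 56.9 and 62.0, 11.3 of Alad beside 4.13 and 4.01, 74.4 of Rgs3 beside 58.7 and 68.4, and 43.4 of Tnc beside 19.4 and 18.6. By chromosome, the share of tested genes called ran from 3.09% on chromosome 3 to 8.25% on chromosome 18 (24 of 291).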
